A study of Mus musculus with 42 samples.

Results

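FK866 blocks NAMPT, the enzyme of the salvage route that turns nicotinamide into NMN and so feeds NAD+ synthesis. The genes of mouse 4-cell embryos that developed with 0.01 µM FK866 were compared with those of 4-cell control embryos, both collected at 58 h after hCG, in RNA-seq libraries of 3 embryos each with 2 libraries per group. Both groups came from ICR females aged 6 to 8 weeks, superovulated and mated to ICR males. The controls are labelled wild type and untreated, while the study's methods give 0.05% DMSO as the control treatment, and each library is a pool of embryos. The members are genes with at least 1 FPKM (fragments per kilobase of exon, scaled to the reads of the library) per library in either group, which gave 7420 of the 15737 genes with a symbol listed once. The table used here runs over chromosomes 1 to 11, the last in part, so Nampt itself was not analysed here.

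The column headers and the study's own gene table give different names to these columns. The values that the study's table gives for 4-cell control and 4-cell FK866 embryos stood in the columns headed late-2-cell-TSA and late-2-cell-Sirt1, and all 84 of its 84 genes in the rows used here were equal within a relative tolerance of 1e-05. In the columns headed 4-cell-con and 4-cell-FK866, at most 4 of the 84 control values and 0 of the FK866 values were equal. The columns that match the study's table were therefore used, and every direction below rests on that assignment. Levels given below for early and late 2-cell embryos come from columns used as headed. Those headers were not checked against the study's late 2-cell values. Read by their headers, the columns used as 4-cell control and 4-cell FK866 would both be late 2-cell embryos. The control column would be embryos treated with the deacetylase inhibitor TSA, and the FK866 column embryos with Sirt1 knocked down. Sirt1, an NAD+-dependent deacetylase, was at 65.8 and 73.4 FPKM in the 2 libraries of the control column and at 32.4 and 73.1 FPKM in those of the FK866 column. One library of each column lay within the other column's range, so Sirt1 did not separate them (limma log2 difference -0.50 ± 0.48 SE, adjusted p = 0.78).

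NAD+ carries electrons in glycolysis, the TCA cycle and respiration, and is consumed by sirtuins, which remove acetyl groups from histones and other proteins, and by PARPs. In the mouse, zygotic transcription starts at low level after fertilisation, in the minor wave of zygotic genome activation (ZGA), and a larger wave follows in the late 2-cell embryo. While this happens, the RNA that the oocyte stored is broken down, and by the 4-cell stage most transcripts are the embryo's own.

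Each column is the sum of 2 libraries, and the values of each library were recovered from the size of 1 read. For 7090 of the 7420 members both libraries of both groups could be read, and 330 could not, of which 160 have no exon length. The larger library of a group is called A and the smaller B. The libraries held 6855134 and 6527679 reads in the control group and 10003481 and 3169677 reads in the FK866 group. FK866 library B, the shallowest, had reads for 6404 of the 7090 genes, more than the 5580 of control A, 6122 of control B and 6150 of FK866 A. The study calls the 2 libraries of a group biological replicates. The labels do not say whether they came from separate matings.

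Among the 7420 genes, 1571 (21.2%) were more than 2-fold higher in the FK866 column and 994 (13.4%) more than 2-fold lower, 34.6% in either direction, on the scale of log2(FPKM + 1). The median difference over all genes was 0.10 on the log2 scale. In the control column 1045 of the 1571 higher genes were under 1 FPKM, members through the FK866 column alone, and 610 were listed at 0, and in the FK866 column 279 of the 994 lower genes were. Of 1504 higher genes that could be read in each library, in 901 (59.9%) each FK866 library exceeded each control library, and of 947 such lower genes in 496 (52.4%) each lay below. Over all 7090 genes, whatever the size of the difference, in 1501 (21.2%) the FK866 pair lay above the control pair without overlap and in 1085 (15.3%) below it.

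Libraries of the same group also differed widely. More than 2-fold apart were 36.2% of the genes between the 2 control libraries and 37.9% between the 2 FK866 libraries. Between groups the share ran from 33.4%, for control B and FK866 B, to 46.0%, for control A and FK866 A, so by this share a pair from different groups was closer than either pair of the same group. By the median absolute log2 difference, the 2 control libraries were slightly closer, at 0.64 against 0.65 for control B and FK866 B and 0.72 for the 2 FK866 libraries. With limma on log2(FPKM + 1), 2 libraries against 2, no gene passed an adjusted p of 0.05, and the smallest adjusted p was 0.22, for the pseudogene Gm14336. At an unadjusted p under 0.05 there were 308 genes (4.34%) higher and 162 (2.28%) lower with FK866. With limma voom on the recovered reads no gene passed either, and 741 genes were under an unadjusted 0.05. The genes described below are therefore described by their values in the 4 libraries, and none of them passed the test. Where genes were higher, a larger amount of RNA per cell and more cells that hold it cannot be told apart in whole embryos.

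**Figure D1:**
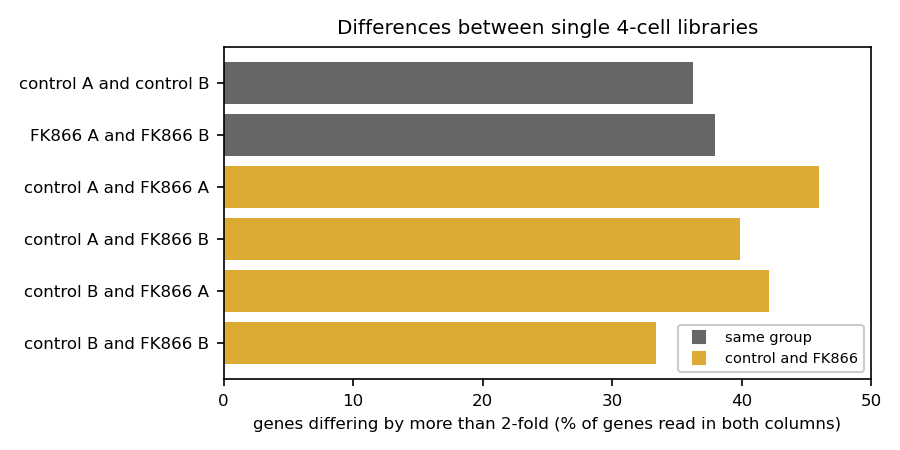
Share of the 7090 genes that differed by more than 2-fold between 2 single libraries, in percent, for the pairs from the same group (grey) and the pairs of a control and an FK866 library (yellow). The pair of control B and FK866 B, at 33.4%, lies below both pairs of the same group, at 36.2% and 37.9%.

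Limited to genes at or above 50 FPKM per library in either group, 66 of 1003 genes were more than 2-fold higher with FK866 and 37 lower. The 2 pairs of libraries did not overlap in 53 of the 66 and in 31 of the 37. Genes at this level were past 2-fold less often than the whole set, and their libraries were apart more often. At or above 100 FPKM, 27 of 587 genes passed 2-fold upwards and 20 downwards, and the libraries were apart in 22 and 16 of them.

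The genes with the widest gap between the groups came from unrelated families. Among the 11 described here upwards, 7 had 0 reads in both control libraries. Gcm1, the transcription factor of the placental labyrinth, was at 27.9 and 8.85 FPKM in FK866 libraries A and B, at least 84.8-fold above the level that 3 reads in each control library would give. Oas1c, of the oligoadenylate synthetase family that senses double-stranded RNA, was at 10.1 and 8.66 FPKM, at least 50.4-fold higher. Mvk, the mevalonate kinase of sterol synthesis, was at 7.14 and 7.19 FPKM, at least 42.7-fold higher. The FK866 libraries agreed closely for Mvk and Oas1c and differed by more than 2-fold for Gcm1. Late 2-cell controls had no reads for Gcm1, while Oas1c was at 39.8 and 49.8 FPKM there and Mvk at 18.3 and 29.7 FPKM.

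The other genes listed at 0 in the controls were Mesp2, a bHLH factor of somite formation, at 6.79 and 7.63 FPKM with FK866, and Hmgn3, a nucleosome-binding protein, at 6.63 and 6.75 FPKM. The olfactory receptor gene Olfr456 was at 13.2 and 8.70 FPKM. Fth-ps2 is a processed pseudogene of the ferritin heavy chain, and its 7.17 and 7.34 FPKM are uncertain because reads of the ferritin gene could be counted there. These values are low, and 3 reads per control library would correspond to between 0.17 and 0.87 FPKM for the 7 genes. Late 2-cell controls had reads for each gene of this paragraph. Mesp2 was at 93.8 and 127 FPKM there and Hmgn3 at 7.55 and 19.9 FPKM. Olfr456 was at 12.2 and 5.25 FPKM and Fth-ps2 at 5.94 and 4.65 FPKM.

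The 4 others had reads in the controls. Unc13c, which primes synaptic vesicles for release, was at 0.017 and 0.92 FPKM in the controls and at 20.4 and 22.2 FPKM with FK866 (limma log2 difference 3.99 ± 0.77 SE, adjusted p = 0.41). Actn4, an actin cross-linker, was at 0.90 and 2.40 FPKM against 28.1 and 24.0 FPKM. Mau2, a subunit of the complex that loads cohesin on chromatin, was at 0.99 and 1.95 FPKM against 20.5 and 22.2 FPKM. The FK866 libraries of these 3 genes lay close together and far above the controls. Banp, which binds promoters of CpG islands, was at 0.088 and 0.023 FPKM in the controls and at 9.01 and 13.5 FPKM with FK866. Late 2-cell controls held Unc13c at 74.5 and 79.3 FPKM and Actn4 at 19.4 and 22.5 FPKM. Mau2 was at 18.5 and 22.0 FPKM there and Banp at 13.1 and 15.5 FPKM.

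In the other direction, 3 of the 12 widest gaps had 0 reads in both FK866 libraries. Tpd52l1, a coiled-coil protein of the tumor protein D52 family, was at 11.5 and 9.38 FPKM in control libraries A and B, at least 22.1-fold higher than the level of 3 reads in each FK866 library. Dnajc5g, a co-chaperone of the DnaJ family, was at 11.3 and 9.28 FPKM, at least 27.0-fold higher. Zfp264, annotated as a transcribed pseudogene whose reads may be shared with related zinc finger genes, was at 3.92 and 7.90 FPKM, at least 26.8-fold higher. At the late 2-cell stage controls held Tpd52l1 at 23.8 and 6.90 FPKM, Dnajc5g at 0 and 0 FPKM, and Zfp264 at 0 and 0.17 FPKM.

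A second set was at 0 in FK866 library A only. Tex12, a protein of the meiotic synaptonemal complex, was at 18.4 and 38.1 FPKM in the controls and at 0 and 3.42 FPKM with FK866. Bbs5, a subunit of the ciliary BBSome, was at 14.9 and 12.5 FPKM against 0 and 2.19 FPKM. Sycn, a pancreatic zymogen granule protein, was at 31.2 and 24.5 FPKM against 0 and 6.24 FPKM. In each of them FK866 B, with fewer reads than FK866 A, held what reads there were. Tex12 was at 126 and 47.5 FPKM in late 2-cell controls, Bbs5 at 11.2 and 8.64 FPKM, and Sycn at 0 and 0 FPKM.

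The 3 others without reads in FK866 A include 2 genes of mitochondria. Rars2, the mitochondrial arginyl-tRNA synthetase, was at 6.42 and 6.80 FPKM in the controls against 0 and 0.46 FPKM with FK866. Slc25a26, the mitochondrial carrier of S-adenosylmethionine, was at 12.3 and 5.07 FPKM against 0 and 0.39 FPKM. Klhl9, an adaptor of a CUL3 ubiquitin ligase, was at 5.63 and 9.51 FPKM against 0 and 0.45 FPKM. The last 3 had reads in both FK866 libraries. Rwdd2a was at 16.3 and 16.9 FPKM against 0.22 and 1.60 FPKM, the lysoplasmalogenase gene Tmem86a at 13.0 and 12.7 FPKM against 1.38 and 0.33 FPKM, and Prkcsh, a subunit of the glucosidase that trims N-glycans, at 8.63 and 8.53 FPKM against 1.59 and 1.18 FPKM.

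**Figure D2:**
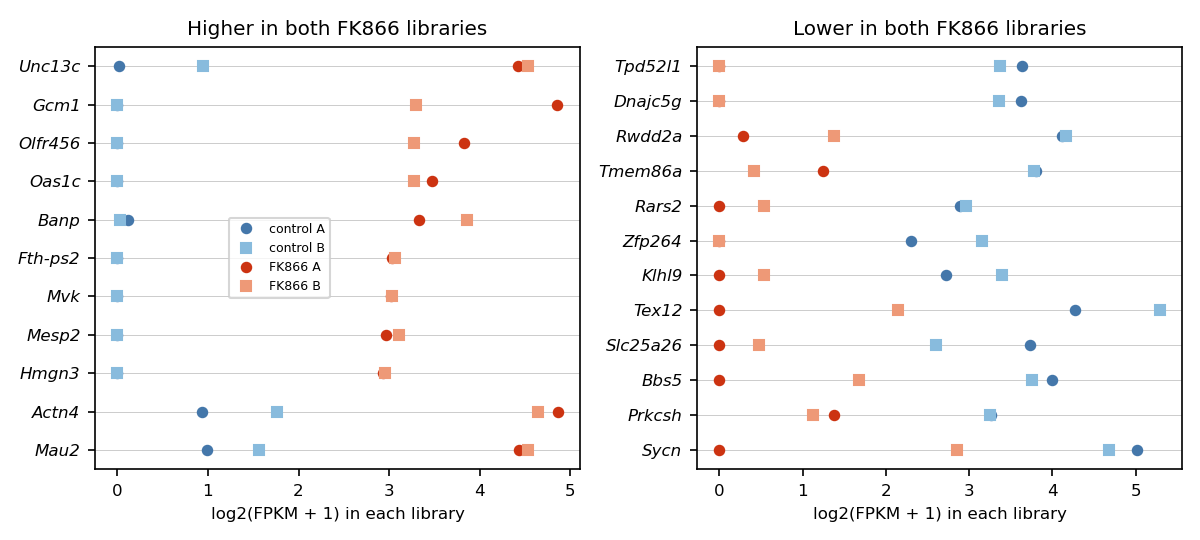
Level of 11 genes with the widest gaps upwards (left) and 12 downwards (right) in each of the 4 libraries, as log2(FPKM + 1). Blue marks are control and red marks FK866 libraries, circles are library A and squares library B, and marks at 0 have no reads. In every row the 2 FK866 libraries lie on one side of the 2 control libraries, which is how the genes were chosen.

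Oocyte genes, a list of transcripts that the oocyte stores, had the highest median difference after the study's own list of minor ZGA genes raised at the 4-cell stage. The oocyte list was drawn up with earlier results of these data known, so it is not independent of them either. Of the 32 members, 19 were more than 2-fold higher with FK866 (59.4%) and 4 lower (12.5%), against 21.2% and 13.4% over all genes. The median of the list was 1.41 on the log2 scale against 0.10 over all genes. In 10 of the 19 the control column was under 1 FPKM, so that they were members only through the group where they were high, and among the 38 genes of the list with any reads in either column 19 were more than 2-fold higher. Both FK866 libraries were above both control libraries in 17 of the 30 that could be read in each library, and below them in 3. Over all genes the FK866 pair lay above in 21.2% and below in 15.3%. At an unadjusted limma p under 0.05 there were 8 genes higher and 0 lower, against 4.34% and 2.28% over all genes. None passed after adjustment. Leaving out FK866 library A brought the number more than 2-fold higher to 13 of 30, and leaving out each of the others gave 15, 16 and 21 of 30.

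The list's strongest member was Oog3, an oocyte-expressed gene of the PRAME-like family on chromosome 4 (GRCm38, 144157557 to 144162663, minus strand). It was at 16.8 and 8.21 FPKM in the controls and at 181 and 125 FPKM with FK866 (limma log2 difference 3.56 ± 0.49 SE, adjusted p = 0.30). All 4 values are well above the level of single reads, and the groups did not overlap. In late 2-cell control embryos Oog3 was at 2281 and 2237 FPKM. Omt2a was at 84.4 and 81.8 FPKM in the controls against 235 and 210 FPKM with FK866, and its neighbour Omt2b at 109 and 151 FPKM against 438 and 299 FPKM. Oog3 has close relatives in the genome and Omt2a and Omt2b resemble each other, so reads may be split among them.

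Genes of the subcortical maternal complex, the protein assembly under the membrane of the egg, were part of the list. Nlrp5 was at 1.23 and 0 FPKM in the controls and at 6.31 and 4.49 FPKM with FK866. Tle6, which binds it, was at 5.24 and 4.76 FPKM against 32.1 and 7.36 FPKM. Padi6, a peptidylarginine deiminase of the egg's lattices, was at 1.38 and 5.20 FPKM against 24.4 and 16.6 FPKM. In all 3 both FK866 libraries were above both controls, with the 2 FK866 values of Tle6 far apart. Ooep had 0 reads in the controls and 0.61 and 3.84 FPKM with FK866. Khdc3, also of this complex, went the other way, at 14.4 and 13.5 FPKM in the controls and 3.75 and 6.62 FPKM with FK866.

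Other oocyte genes with both FK866 libraries above both controls were Nlrp14, at 0.12 and 5.20 FPKM against 24.2 and 11.8 FPKM, and Fbxw28, an F-box gene, at 3.96 and 0 FPKM against 15.2 and 20.1 FPKM. The zona pellucida gene Zp2 was at 0 and 2.64 FPKM against 4.59 and 5.68 FPKM, and the kinase gene Wee2, an inhibitor of meiotic progress in the oocyte, at 0.23 and 0.098 FPKM against 3.44 and 2.41 FPKM. These are low levels in both groups. The proto-oncogene Mos, the kinase that holds the egg in metaphase, rested on 1 library, with 0 FPKM in both controls, 20.3 FPKM in FK866 A and 0 in FK866 B. Bcl2l10, an oocyte relative of BCL2, could not be read per library and was at 0.42 FPKM in the control column and 13.8 FPKM in the FK866 column.

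Other well expressed members did not share this pattern. Dppa3 (Stella), which protects the maternal genome from demethylation, was at 3777 and 3530 FPKM in the controls and at 3161 and 3351 FPKM with FK866, a log2 difference of -0.17 ± 0.25 SE. Btg4, an adaptor of maternal RNA decay, was at 23.2 and 21.8 FPKM against 16.3 and 36.0 FPKM, and Uchl1, a ubiquitin hydrolase, at 10.7 and 12.2 FPKM against 9.74 and 19.9 FPKM. For both, the control values lay between those of the FK866 libraries.

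Set beside the late 2-cell control column, 18 of the 19 oocyte genes more than 2-fold higher with FK866 were lower in the 4-cell FK866 column. All 19 were lower in the 4-cell control column. Of all 32 members of the list, 29 were lower in the 4-cell FK866 column and 30 in the 4-cell control column. The raised genes therefore resembled the whole list in this. Bcl2l10, for example, was at 919 FPKM per library in late 2-cell controls, at 13.8 FPKM with FK866 at the 4-cell stage and at 0.42 FPKM in the 4-cell controls. Nlrp14 was at 144 FPKM, 18.0 FPKM and 2.66 FPKM in the same order. The exception among the 19 was Mos, at 6.10 FPKM in late 2-cell controls. Dppa3 and Khdc3 were the members of the list not lower in the 4-cell control column. Dppa3 went from 2058 FPKM per library in late 2-cell controls to 3654 FPKM there, and Khdc3 from 4.19 to 13.9 FPKM. Levels across these columns are FPKM from 1 table. The part of the number of cells per embryo at collection was not tested.

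**Figure D3:**
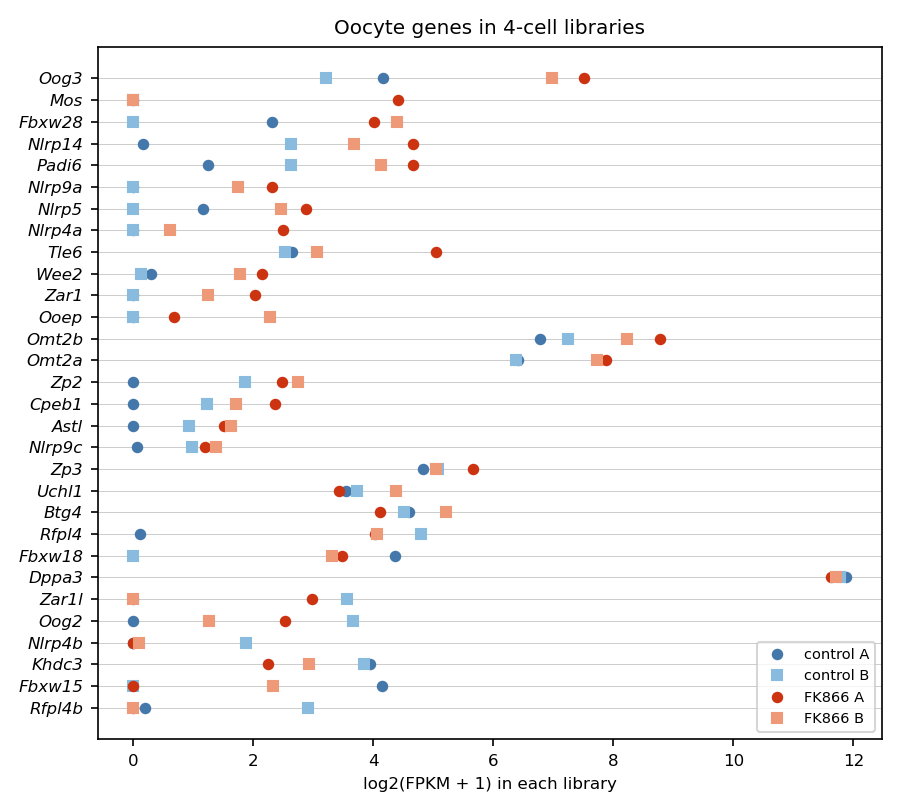
Level of the 30 oocyte genes that could be read in each of the 4 libraries, as log2(FPKM + 1), ordered by the difference between the columns with the most raised in FK866 at the top. Blue marks are control and red marks FK866 libraries, circles are library A and squares library B. In 17 rows both red marks lie to the right of both blue marks and in 3 rows to the left.

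Glycolysis and the TCA cycle both use NAD+. Genes were more often higher than lower with FK866 over the whole set too, at 21.2% against 13.4%, and the counts of both lists stand beside those shares. Over all genes the FK866 pair of libraries lay above the control pair in 21.2% and below it in 15.3%. Of the 18 glycolysis members, 7 were more than 2-fold higher with FK866 and 0 lower, with a median of 0.72 on the log2 scale, and 8 of 17 had both FK866 libraries above both controls against 1 below. In 4 of the 7 the control column was under 1 FPKM, so that they were members through the FK866 group alone. Set beside late 2-cell controls, 5 of the 7 were lower in the 4-cell FK866 column and all 7 in the 4-cell control column. Of all 18 members, 11 and 15 were lower in these columns. Ldhb, the lactate dehydrogenase subunit that turns lactate into pyruvate, was at 8.18 and 17.5 FPKM in the controls and at 104 and 80.6 FPKM with FK866 (limma log2 difference 2.83 ± 0.51 SE, adjusted p = 0.41). It lies on chromosome 6 (GRCm38, 142490249 to 142507957, minus strand). Ldhc, the testis form, was at 0 and 3.68 FPKM against 6.71 and 12.0 FPKM. Pkm, the pyruvate kinase, was at 2.36 and 8.91 FPKM against 18.2 and 13.8 FPKM. In these 3 the groups did not overlap. Pygb, of glycogen breakdown, and Pgam2, a phosphoglycerate mutase, each rested on 1 FK866 library, at 6.11 and 5.26 FPKM, with 0 in the other 3 libraries.

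Of the 22 TCA cycle members, 9 were more than 2-fold higher and 1 lower, with a median of 0.55, and the FK866 pair lay above the control pair in 10 of 21 and below it in 1. In 4 of the 9 the control column was under 1 FPKM. Against late 2-cell controls, 6 of the 9 were lower in the 4-cell FK866 column and 8 in the 4-cell control column. Of all 22 members, 12 and 14 were lower in these columns. The citrate synthase gene Cs was at 28.7 and 25.02 FPKM in the controls and at 73.0 and 36.9 FPKM with FK866. Mdh2, the mitochondrial malate dehydrogenase, was at 40.8 and 47.7 FPKM against 121 and 62.5 FPKM. Both are among the better expressed members, and for both FK866 B was closer to the controls than to FK866 A. Idh2, the NADP+-dependent isocitrate dehydrogenase, was at 0 and 0.30 FPKM against 1.74 and 14.3 FPKM, and Fh1, fumarate hydratase, at 0 and 0.045 FPKM against 10.0 and 1.12 FPKM. Suclg2, a succinyl-CoA ligase subunit, was lower, at 9.06 and 2.68 FPKM against 0 and 1.91 FPKM. Without FK866 library A, 5 of 21 members were more than 2-fold higher, and centring each column on its median also left 5 of 22.

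**Figure D4:**
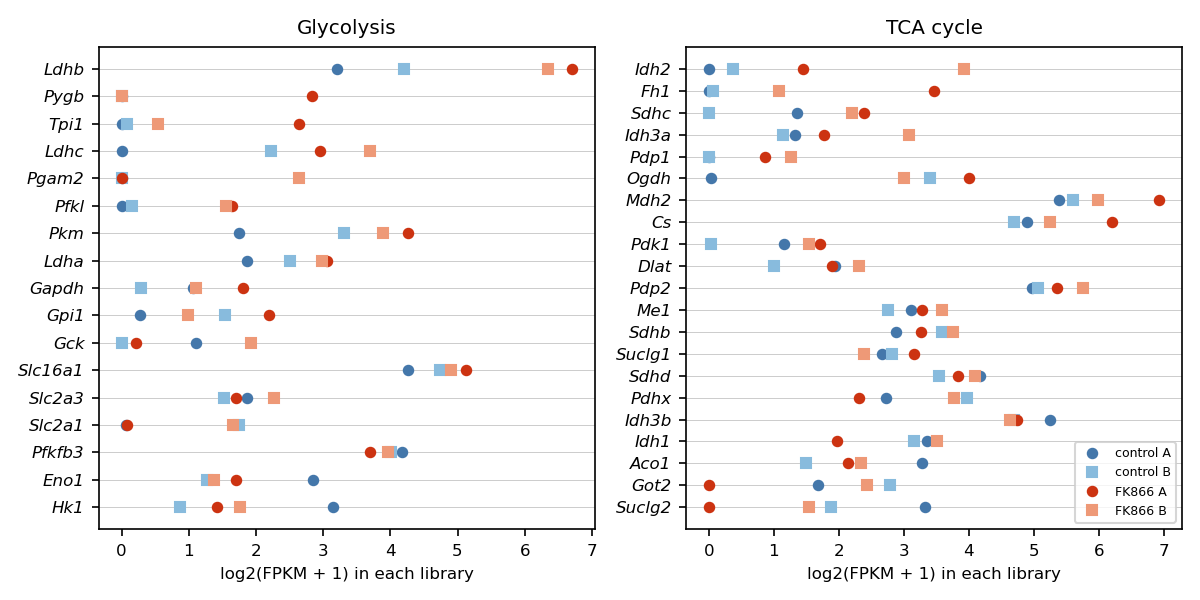
Level of the glycolysis genes (left) and TCA cycle genes (right) that could be read in each of the 4 libraries, as log2(FPKM + 1), ordered by the difference between the columns. Blue marks are control and red marks FK866 libraries, circles are library A and squares library B. Ldhb shows the clearest gap of the glycolysis genes, and the pairs of marks do not overlap in 9 of 17 rows on the left and 11 of 21 on the right.

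Subunits of oxidative phosphorylation, which re-oxidise NADH, differed less often than all genes, of which 21.2% were higher and 13.4% lower. Of 45 members, 2 were more than 2-fold higher (4.44%) and 1 lower (2.22%), with a median of -0.11. Both higher genes had a control column under 1 FPKM, so that they were members through the FK866 group alone. Cox6a1, a subunit of cytochrome c oxidase, was at 308 and 454 FPKM in the controls and at 274 and 320 FPKM with FK866. The largest difference of the list, for Cox7b2, came from 15.1 FPKM in FK866 B alone, with 0 in the other 3 libraries. Mitochondrial ribosomal proteins had 1 of 40 members higher (2.5%) and 4 lower (10%), with a median of -0.11. The share of lower ones lies near the 13.4% over all genes. Mrpl34 was at 526 and 292 FPKM in the controls and at 642 and 709 FPKM with FK866. Mrps12 was at 0 and 48.5 FPKM against 109 and 37.6 FPKM, with control A apart from the other libraries.

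The enzymes around NAD+ itself were mostly low. Of 15 genes of NAD+ metabolism in the rows used here, 4 reached 1 FPKM. Nmnat1, the nuclear enzyme that turns NMN into NAD+, was at 4.42 and 9.43 FPKM in the controls and at 17.6 and 14.0 FPKM with FK866, with the groups apart. Nadk, which makes NADP+, was at 59.3 and 62.5 FPKM against 67.9 and 36.6 FPKM, and Slc25a51, the mitochondrial NAD+ carrier, at 19.6 and 18.2 FPKM against 14.9 and 13.7 FPKM. Nudt5, an ADP-ribose hydrolase, was at 0.022 and 0.73 FPKM against 3.36 and 0.78 FPKM.

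Among sirtuins and PARPs, 5 of 12 members were more than 2-fold higher (41.7%) and 2 lower (16.7%), with a median of 0.22. The shares over all genes were 21.2% and 13.4%. The control column was under 1 FPKM in 2 of the 5 higher genes, and the FK866 column in 1 of the 2 lower ones. Tiparp, a mono-ADP-ribosyltransferase, was at 37.3 and 15.5 FPKM in the controls and at 74.8 and 55.5 FPKM with FK866. Parp12, of the same family, was at 3.69 and 0.65 FPKM against 17.6 and 8.92 FPKM. Both had FK866 libraries above the controls. Sirt4, a mitochondrial sirtuin, had no reads in the controls and was at 17.1 and 1.18 FPKM with FK866, at least 49.0-fold higher but with most of the signal in library A. The nuclear sirtuin Sirt6 was at 17.3 and 10.4 FPKM against 6.89 and 4.76 FPKM.

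Histone acetylation genes had 1 of 14 members more than 2-fold higher and 1 lower (7.14% each), with a median of -0.05, against 21.2% and 13.4% over all genes. The lower one was Hat1, the acetyltransferase that acts on newly made histone H4, on chromosome 2 (GRCm38, 71388958 to 71441622, plus strand). It was at 61.4 and 52.98 FPKM in the controls and at 12.8 and 16.3 FPKM with FK866 (limma log2 difference -1.91 ± 0.46 SE, adjusted p = 0.53), with the groups far apart. The higher one was Ing3, a subunit of the NuA4 acetyltransferase complex, at 0.49 and 1.57 FPKM against 4.06 and 16.5 FPKM. The deacetylase gene Hdac2 was at 15.1 and 15.6 FPKM against 4.54 and 10.2 FPKM, and the testis bromodomain gene Brdt at 43.8 and 41.2 FPKM against 38.1 and 32.6 FPKM.

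Transcripts of the 2-cell stage differed in both directions, 13 members of their list above and 9 below 0 on the log2 scale. The lower and upper quartiles were -0.39 and 0.76, against -0.52 and 0.82 over all genes. Of 22 members of the list of 2-cell genes, 4 were more than 2-fold higher (18.2%) and 2 lower (9.09%), with a median of 0.08. The shares over all genes were 21.2% and 13.4%. The lower ones were Zfp352, by -2.04 on the log2 scale, and Zfp809, by -1.01, and each rested on 1 control library. Zfp352 was at 6.35 and 0.067 FPKM in the controls against 0.044 and 0 FPKM with FK866. Zfp809 was at 0 and 18.6 FPKM against 5.91 and 2.34 FPKM, with a limma log2 difference of 0.12 ± 1.35 SE. All 4 higher ones were Zscan4 copies, which encode telomere-regulating factors of the minor ZGA. The control column was under 1 FPKM in 3 of the 4. The copies Zscan4a and Zscan4d were not past 2-fold, and their groups overlapped. Zscan4a was at 2.75 and 0.47 FPKM in the controls against 0.92 and 4.43 FPKM, and Zscan4d at 0.45 and 6.81 FPKM against 2.33 and 5.69 FPKM. Zscan4c was at 0.77 and 0.67 FPKM in the controls and at 4.83 and 14.6 FPKM with FK866, and Zscan4f at 3.28 and 2.82 FPKM against 8.32 and 8.05 FPKM. The groups were apart for both, but the copies are near-identical and their reads cannot be assigned with certainty. In late 2-cell controls Zscan4c was at 126 and 47.7 FPKM, above every 4-cell library. The abundant Alppl2, an alkaline phosphatase, was at 422 and 313 FPKM against 417 and 347 FPKM. Duxf3, the Dux gene that activates the Zscan4 genes, was no member: it had 0 reads in both FK866 libraries and a value of 0.005 FPKM per library in the control column, which is on no whole number of reads, and it lies in an array of near-identical copies.

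The study's list of minor ZGA genes raised at the 4-cell stage was chosen on these samples and is no independent evidence. Of its 76 members, 75 were more than 2-fold higher and 0 lower, the 2 pairs of libraries did not overlap in 64 of the 74 that could be read per library, and 19 were under an unadjusted limma p of 0.05. Of its list for the late 2-cell stage, 10 of 53 members were more than 2-fold higher at the 4-cell stage (18.9%) and 7 lower (13.2%), with a median of 0.17. These shares lie near the 21.2% and 13.4% over all genes. Genes more than 2-fold higher in early than in late 2-cell embryos, with libraries apart, had 248 of 1089 members more than 2-fold higher with FK866 (22.8%) and 176 lower (16.2%), with a median of -0.01. Genes higher in late than in early 2-cell embryos had 289 of 2017 higher (14.3%) and 175 lower (8.68%), with a median of 0.07. The shares of the genes higher in early 2-cell embryos lie near those over all genes, and the shares of those higher in late 2-cell embryos lie below.

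Lineage and pluripotency factors included one of the clearest single genes. Of 23 members, 4 were more than 2-fold higher (17.4%) and 2 lower (8.7%), with a median of 0.10, against 21.2% and 13.4% over all genes. The control column was under 1 FPKM in 2 of the 4 higher genes, and the FK866 column in both lower ones. Klf17, a zinc finger factor of the oocyte and 2-cell embryo, lies on chromosome 4 (GRCm38, 117757836 to 117765648, minus strand). It was at 34.5 and 54.3 FPKM in the controls and at 294 and 235 FPKM with FK866 (limma log2 difference 2.57 ± 0.39 SE, adjusted p = 0.33), and at 426 and 434 FPKM in late 2-cell controls. Its relative Klf4 was at 131 and 117 FPKM against 251 and 225 FPKM. Tfap2c, a trophoblast factor, was at 19.2 and 43.6 FPKM against 102 and 29.9 FPKM, where FK866 B lay between the controls. Dppa5a, a pluripotency marker, was at 2099 and 2159 FPKM against 2155 and 1963 FPKM, a log2 difference of -0.05 ± 0.25 SE.

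**Figure D5:**
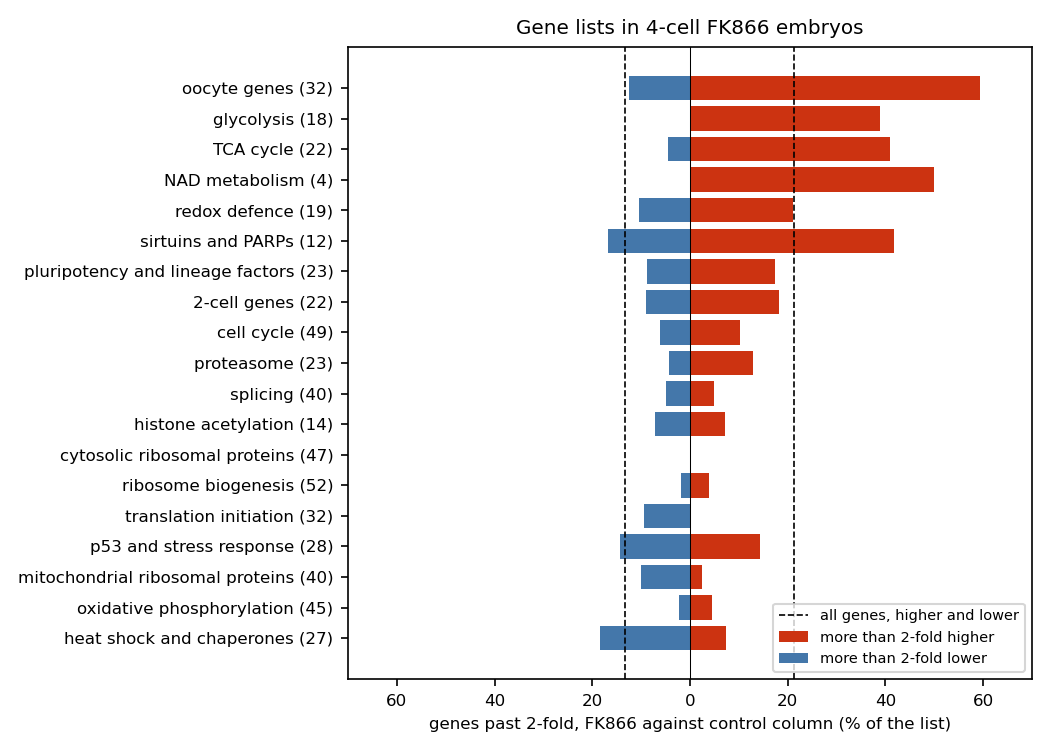
Share of each gene list that was more than 2-fold higher (red, to the right) or lower (blue, to the left) in the FK866 column, in percent of its members, whose number is in brackets. The dashed lines are the shares over all 7420 genes, 21.2% higher and 13.4% lower. Oocyte genes reach 59.4% higher, while the lists of ribosomes, splicing and respiration lie inside both lines. The lists were not matched to all genes by level of expression.

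Chaperones had the lowest median of the lists with more than 1 member, -0.37 on the log2 scale. Of 27 members, 5 were more than 2-fold lower and 2 higher, where 13.4% of all genes were lower, so that the number past 2-fold lies near the share over all genes. The FK866 column was under 1 FPKM in 1 of the 5 lower genes, and the control column in both higher ones. In 11 of 26 both FK866 libraries were below both controls, against 15.3% over all genes, and in 1 above. Dnajc2, a ribosome-associated co-chaperone, was at 64.5 and 71.0 FPKM in the controls and at 4.79 and 33.7 FPKM with FK866. Hspa5, the chaperone BiP of the endoplasmic reticulum, was at 24.4 and 29.3 FPKM against 7.80 and 14.6 FPKM, and Hspe1, of the mitochondrial chaperonin, at 36.1 and 66.4 FPKM against 24.96 and 22.9 FPKM. In all 3 the groups did not overlap. Hspd1, its partner, was at 15.1 and 45.4 FPKM against 4.88 and 21.3 FPKM, where they did. Dnaja2, the most abundant member, was at 209 and 226 FPKM against 158 and 180 FPKM, a log2 difference of -0.37 ± 0.32 SE. Xbp1, a factor of the unfolded protein response, was listed at 0 except for 5.26 FPKM in FK866 A. Without FK866 library A, 2 of 26 members were more than 2-fold lower, and without FK866 library B 8 of 26 were.

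The genes of protein and RNA production differed little. None of 47 cytosolic ribosomal protein genes was past 2-fold in the columns, with a median of -0.06. Rpl5 was at 355 and 351 FPKM in the controls and at 136 and 222 FPKM with FK866, and Rplp1, the most abundant, could not be read per library and was at 6088 FPKM in the control column. Ribosome biogenesis had 2 of 52 members higher and 1 lower, with a median of -0.06, and its lower gene Rrp1 was at 26.0 and 47.3 FPKM against 11.1 and 15.1 FPKM. Translation initiation had 0 of 32 higher and 3 lower, with a median of -0.08, and Eif3c was at 431 and 376 FPKM against 285 and 344 FPKM. All 3 lists were past 2-fold less often than the 7420 genes as a whole (21.2% higher and 13.4% lower). Genes at or above 50 FPKM were so too, with 66 of 1003 higher and 37 lower. The lists were not compared with genes of a similar level.

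Splicing genes had 2 of 40 members higher and 2 lower (5% each), with a median of -0.04, against 21.2% and 13.4% over all genes. Snrpd3, a core snRNP protein, was at 24.8 and 12.9 FPKM in the controls and at 6.19 and 7.15 FPKM with FK866. Snrpe was at 386 and 206 FPKM against 125 and 454 FPKM, with the controls between the FK866 libraries. Proteasome genes had 3 of 23 higher (13%) and 1 lower (4.35%), with a median of 0.0045. The control column was under 1 FPKM in 1 of the 3 higher genes. Psmd1 was at 4.14 and 2.78 FPKM against 4.91 and 29.0 FPKM, so that its difference rested on FK866 B, and Psmd7 was at 240 and 297 FPKM against 178 and 271 FPKM.

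Cell cycle genes had 5 of 49 members higher (10.2%) and 3 lower (6.12%), with a median of 0.05, against 21.2% and 13.4% over all genes. All 5 higher genes had a control column under 1 FPKM, so that they were members through the FK866 group alone. The FK866 column was under 1 FPKM in 2 of the 3 lower ones. Cdk4, the kinase of G1 progression, was at 85.4 and 67.4 FPKM in the controls and at 27.4 and 26.4 FPKM with FK866, a difference well outside the spread of either pair (limma log2 difference -1.46 ± 0.41 SE, adjusted p = 0.62). Kntc1, a kinetochore protein, was at 0.018 and 0 FPKM against 1.29 and 6.60 FPKM. Ccna2, cyclin A2, was at 369 and 395 FPKM against 407 and 347 FPKM, with a log2 difference of -0.02 ± 0.30 SE. Genes of the p53 and stress response had 4 of 28 higher and 4 lower, 14.3% each way, with a median of -0.10. The control column was under 1 FPKM in 2 of the 4 higher genes, and the FK866 column in 3 of the 4 lower ones. Trib3, a stress-induced pseudokinase, was at 0 and 8.80 FPKM against 45.1 and 16.2 FPKM, Mdm2, the ubiquitin ligase of p53, at 63.1 and 59.1 FPKM against 36.0 and 25.7 FPKM, and Mcl1, an anti-apoptotic factor, at 216 and 209 FPKM against 230 and 299 FPKM. Phlda3, a p53 target, had 10.5 FPKM in FK866 B and at most 0.064 FPKM elsewhere.

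Redox defence genes had 4 of 19 members higher (21.1%) and 2 lower (10.5%), with a median of 0.27, near the shares of 21.2% and 13.4% over all genes. The control column was under 1 FPKM in 1 of the 4 higher genes. Nqo1, a quinone reductase that uses NADH and NADPH, had no reads in the controls and was at 1.42 and 8.13 FPKM with FK866, at least 16.5-fold higher. Gpx1, a glutathione peroxidase, was at 195 and 263 FPKM against 361 and 277 FPKM. Glrx3, a glutaredoxin, was at 79.1 and 79.1 FPKM against 31.7 and 42.0 FPKM. For Prdx2, a peroxiredoxin, the higher value came from FK866 A alone, at 44.5 FPKM against 5.90 FPKM in FK866 B and 6.94 and 6.38 FPKM in the controls.

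Markers of cells that could come along with embryos were scarce. Of 14 markers of cumulus and granulosa cells in the rows used here, 1 reached 1 FPKM: Kitl, the KIT ligand, was at 4.37 and 1.35 FPKM in the controls and at 0 and 0.053 FPKM with FK866. Of 4 sperm markers 1 reached it, Odf2, which centrosomes also hold, at 1.51 and 2.13 FPKM against 1.67 and 1.81 FPKM. Of 10 blood markers 3 did, and Hba-a1, an alpha globin, was at 0 and 9.81 FPKM against 9.85 and 6.22 FPKM. None of these 3 lists was more than 2-fold higher with FK866 in any member.

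Whether the difference between FK866 and control was the same at the late 2-cell stage was tested with an interaction term in limma over 9673 genes read in all 8 libraries of the 4 columns. The late 2-cell embryos were collected at 48 h after hCG, and their columns were used as headed, without a check against the study's late 2-cell values. No gene passed an adjusted p of 0.05, the smallest was 0.26, and 784 genes were under an unadjusted p of 0.05, with a 4-cell difference above the late 2-cell one in 516 and below it in 268. Ldhb was at 892 and 984 FPKM in late 2-cell controls and at 923 and 948 FPKM in late 2-cell FK866 embryos, so that the 4-cell difference exceeded the late 2-cell one by 2.83 ± 0.51 (SE) on the log2 scale (adjusted p = 0.38). For Klf17 the excess was 2.84 ± 0.49 (adjusted p = 0.36), and for Unc13c it was 3.98 ± 0.70 (adjusted p = 0.36). Hat1 was lower with FK866 at both stages in log2 difference, by -1.40 at the late 2-cell and -1.91 at the 4-cell stage.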

How the data were processed

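RNA-seq of 18 samples in 9 groups was described in the labels, and the 24 H3K27ac samples were not used. The authors used Trim Galore for trimming, HISAT2 for alignment (mm10) and featureCounts for counting, and deposited FPKM in a table named for counts, 1 column for each group. The methods test counts with DESeq2, which FPKM do not allow. Of 9 columns, 2 were not used. Each column was divided by its 2 libraries.

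FPKM times the exon length (GENCODE M21, GRCm38) lies on whole reads in 97.8% and 97.7% of the values of the control and FK866 columns, from which library totals and values were recovered. Tests used limma 3.58.1 (trend, two-sided, Benjamini-Hochberg) in R 4.3.3 on log2(FPKM + 1), and figures and sums used Python 3.11.15, numpy 2.4.6, pandas 2.3.3 and matplotlib 3.10.9. Scripts were tested on simulated data. FPKM are shares of a library, so an abundant gene moves the others, and log2(FPKM + 1) understates the difference of low genes.

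Named genes were the 12 widest gaps between libraries in each direction with at least 5 FPKM per library in the higher column, symbols of Gm and a number or ending in Rik left out, the members of each list with the largest difference and mean, and Sirt1, Nampt, Duxf3 and Hat1. 1 of the upward ones is not reported here. Further list members were named after their values were seen, as was Gm14336. The members and lists were chosen with earlier results of these data known. Levels at 0 reads were bounded by 3 reads per library, which covers counting error only. The alternatives tried were other pseudocounts (0.1, 5), other filters (5 FPKM or none), columns as headed, centring, undivided columns, limma without trend, voom, and leaving out each library.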

Additional observations from a re-analysis of the deposited data

How the results depend on the processing

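No paired analysis was possible because the columns carry no replicate number. The numbers of genes more than 2-fold higher and lower were 409 and 242 with a pseudocount of 5 (libraries apart in 289 and 157), and 678 and 486 with a minimum of 5 FPKM (apart in 478 and 324); centring on the median left the libraries of 762 lower genes apart. The columns headed 4-cell gave 3916 higher and 3078 lower genes, 3719 and 2607 apart, and limma called 1463 and 663; the FK866 column of that pair holds 1 library. Leaving out each library in turn gave 1135 to 2246 genes higher and 881 to 1560 lower, 1116 to 1650 and 706 to 1018 apart, where a group of 1 library separates more easily by construction. limma then called 0 to 288 genes higher and 0 lower, with the 288 without FK866 library A, where the lone library is assumed to vary like the controls. The test between stages called 0 to 441 genes, with 341 and 280 without late 2-cell control library A and B, 441 and 375 without late 2-cell FK866 library A and B, and 0 without any 4-cell library; the cause was not tested.

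With the columns headed 4-cell, 22 named genes had the opposite sign: the log2 differences were -3.18 for Gcm1, -0.74 for Banp, -0.58 for Actn4, -1.16 for Mau2, 3.47 for Tpd52l1, 1.95 for Tex12, 2.02 for Bbs5, -4.67 for Alppl2, 0.047 for Nadk, -1.84 for Sirt4, 3.28 for Brdt, -1.27 for Mrps12, -4.09 for Mrpl34, -2.81 for Cox7b2, 3.18 for Eif4e3, -1.01 for Phlda3, -4.05 for Mcl1, -0.73 for Mdh2, -1.81 for Gpx1, -1.35 for Klf17, 0.64 for Kitl and 4.65 for Odf2. Oog3, Ldhb and Hat1 kept their sign there, at 3.61, 4.17 and -4.71. Among genes with small differences, centring gave -0.069 for Alppl2 and voom 0.019 for Ccna2. Leaving out 1 library reversed 10 genes, whose differences then ranged from -2.91 to 0.085 for Eif4e3, from -1.17 to 0.69 for Snrpe, from -0.29 to 3.15 for Hba-a1, from -0.15 to 0.28 for Alppl2, from -0.14 to 0.090 for Ccna2, from -0.19 to 0.12 for Odf2, from -1.08 to 0.072 for Sirt1, from -0.58 to 0.023 for Psmd7, from -0.72 to 0.16 for Nadk and from -0.12 to 0.018 for Dppa5a.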
